A study of Aspergillus nidulans with 24 samples.

Results

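The genes described here are those whose RNA was high on glucose and low on fructose in the wild type strain of Aspergillus nidulans, a filamentous fungus. A gene was taken when the lower of its 2 wild type group means on glucose was at least 3 times the higher of its 2 wild type group means on fructose, with 5 normalized counts added to each mean. Among the 8728 genes, 26 met this rule, which is 0.298% of all genes, and 5 of the 26 carried a symbol, namely mirA, mstE, sidI, pmeA and sidA. These genes were selected on the wild type group means, so their wild type glucose to fructose ratios are a description and not a finding. The areB deletion strain was not used to choose them, and its libraries show how the same genes behaved in other cultures.

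RNA was measured in mycelium from 24 libraries, in 8 groups of 3 biological replicates. The wild type carries biA1, a biotin marker. The other strain has areB, which encodes a GATA-type regulator of nitrogen and carbon use, replaced with the Aspergillus fumigatus pyrG gene, and has nkuA replaced with argB in a background of pyrG89, argB2, pabaB22 and riboB2. Each strain grew in minimal medium for 9 to 11 h at 37 °C on 0.1% fructose or 1% glucose, with 5 mM urea or 10 mM ammonium tartrate as the nitrogen source. The sugars differed in kind and in amount, ammonium came with tartrate, and the strains differ at all these loci, so none of these can be told apart. The labels do not give the growth time of each library.

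Glucose is the preferred carbon source of Aspergillus nidulans. While it is present in quantity, the repressor CreA shuts off many genes for the use of other carbon sources, so genes that are high on glucose stand against the better known direction of this response. Glucose uptake runs through carriers of high and of low affinity, and iron uptake runs through siderophores, small chelators that the fungus makes, secretes and takes up again when iron is scarce. The factor HapX governs the response to iron shortage and SreA the response to iron excess.

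All levels below are the authors' means of normalized counts per group. They are not divided by gene length, so levels of different genes are not compared. No value per library was used here, and depth per library, the spread between replicates and the error of each mean are unknown, and no glucose to fructose difference carries a test. The sums of the means over all genes ran from 2.75e+06 to 3.01e+06 across the groups. As a check of the labels, areB had means from 67.9 to 93.9 in the wild type groups and was listed at 0 in every group of the deletion strain. Of the fruiting tissue markers nsdD, nosA, rosA, esdC and mutA, the summed mean was 2750.4 and 1365 in the wild type fructose groups and 344 and 356 in its glucose groups, and from 226 to 360.1 in the deletion strain. Most of the wild type fructose sums came from nosA and esdC. The marker nsdD did not fall on glucose, with wild type means of 137 and 205 on fructose and 196 and 203 on glucose. The 6 conidiophore markers in the table summed to between 172 and 262 in every group. Among them brlA, the defining regulator, was at 0 in both wild type glucose groups and only at 3.84 and 5.35 in its fructose groups. The part of these tissues in the results below was not tested, and fewer cells of a kind and less RNA per cell cannot be told apart.

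**Figure D1:**
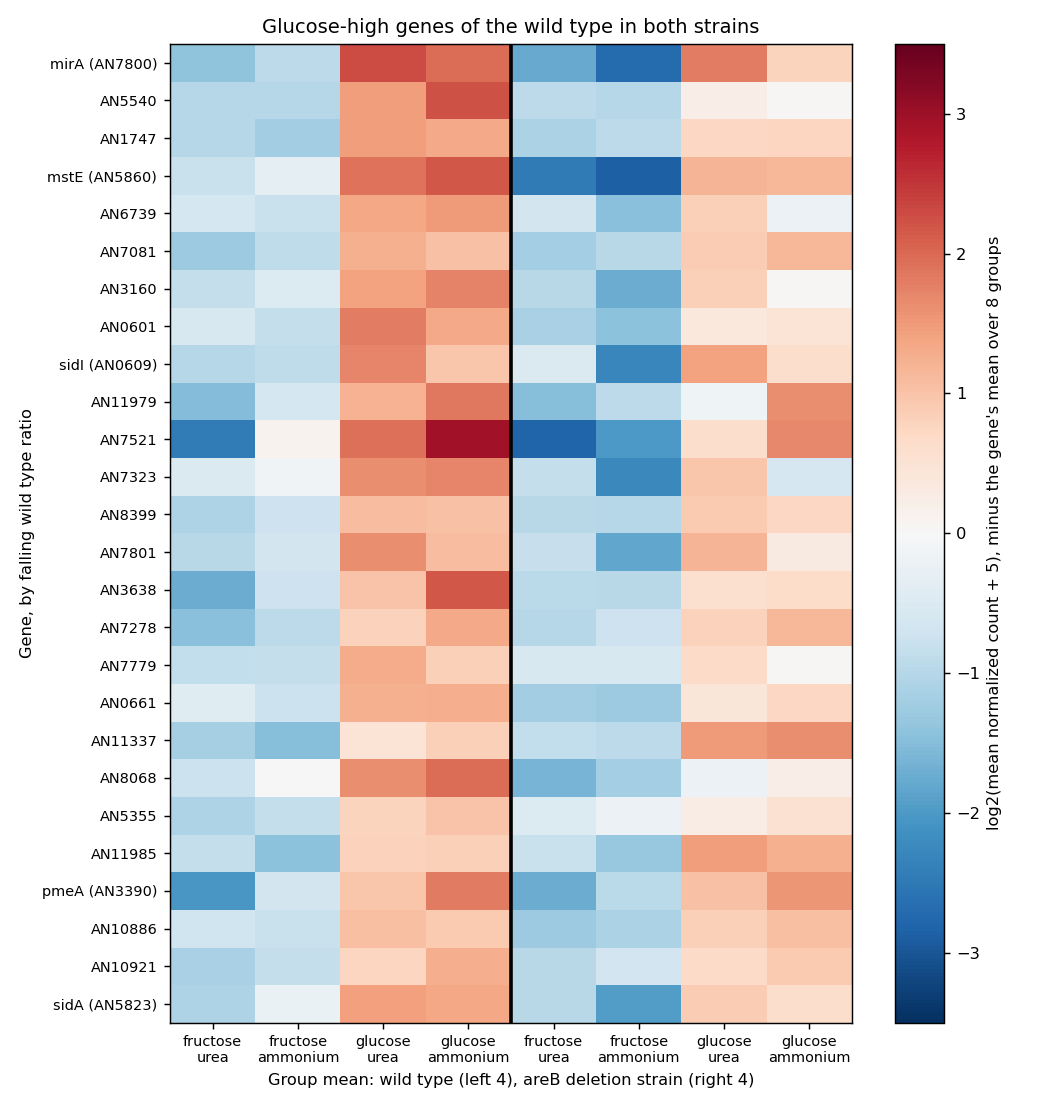
Heat map of the 26 genes, with genes as rows by falling wild type ratio and the 8 groups as columns, wild type left of the black line and areB deletion strain right of it. Colour gives log2 of the group mean plus 5, minus the gene's mean over the 8 groups, with red above and blue below it. In the deletion strain the glucose columns lie above the fructose columns for all 26 genes, often by less than in the wild type.

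The siderophore system supplied 4 of the 26 genes, and mirA, a siderophore iron transporter gene, had the largest ratio of all 26 in the wild type, at 7.21. Its wild type means were 41.0 with urea and 60.4 with ammonium on fructose, and 588 with urea and 467 with ammonium on glucose. The deletion strain had means of 31.0, 14.1, 418 and 204 in the same order. Both glucose groups of each strain thus lay above both of its fructose groups, and the ratio in the deletion strain was 5.80.

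The gene sidA encodes the L-ornithine N5-monooxygenase that starts siderophore synthesis. Its wild type means were 1799, 3245, 10488 and 9755, again in the order fructose urea, fructose ammonium, glucose urea and glucose ammonium, and its deletion strain means were 1948, 982, 7057 and 5852. It was the last gene inside the threshold in the wild type, at 3.003, and the ratio of 2.998 in the deletion strain lay just outside. The gene sidI, for an enoyl-CoA hydratase of triacetylfusarinine C synthesis, had wild type means of 288, 310.2, 1929.9 and 1144. Its deletion strain means were 410.3, 115, 1547 and 893, where the ratio was 2.16 against 3.65 in the wild type. The order of the media thus differed between the strains within fructose, where ammonium stood above urea in the wild type and below it in the deletion strain.

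AN7801 lies next to mirA in the annotation, and its orthologs have a role in siderophore-dependent iron import through an ester hydrolase activity. Its wild type means were 7.16, 10.1, 68.8 and 45.5, and its deletion strain means were 8.43, 1.76, 48.7 and 24.7. The ratio was 3.35 in the wild type and 2.21 in the deletion strain.

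Other genes of iron uptake and siderophore synthesis moved less with the sugar. Of the 12 genes in the table from a list of iron uptake and siderophore genes, 3 were glucose-high in the wild type, where 0.298% of all genes were. In the same strain 9 of the 12 had a ratio above 1, where 31.7% of all genes did. AN7801 is not on that list. A wider set of 41 genes with iron or siderophore words, drawn after the levels had been seen, held 4 glucose-high genes. In it 25 of the 41 had a wild type ratio above 1. The glucose-high genes are above 1 by choice, and both sets were drawn with results of these data known. Nothing is therefore read from these wild type counts. In the deletion strain 8 of the 12 had a ratio above 1 and 1 was at least 3, where 30.0% of all genes were above 1. The nonribosomal peptide synthetase gene sidD had wild type means of 3072, 3868, 9783 and 9484, a ratio of 2.45, and a deletion strain ratio of 1.49. The regulator gene hapX had wild type means of 46.4, 65.8, 99.6 and 89.7, a ratio of 1.34. The repressor gene sreA ran the other way, with 155, 188, 58.0 and 98.3 in the wild type, a ratio of 0.327. The ferricrocin synthetase gene sidC stood at 0.990 and the transporter gene mirB at 1.06 in the wild type. The means of mirB were 2292 on glucose with urea but 667 on glucose with ammonium, and the ratio takes the lower of these. This difference was not tested. None of the 12 genes passed the authors' DESeq2 test of the strains in any medium. At an unadjusted p under 0.05, recovered from the adjusted values, sidL, mirC, hapX and mirB were lower on fructose with ammonium, where 8.02% of all genes were. At that level mirC was lower on fructose with urea as well, where 7.93% of all genes were, and with ammonium on glucose, where 3.70% were.

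**Figure D2:**
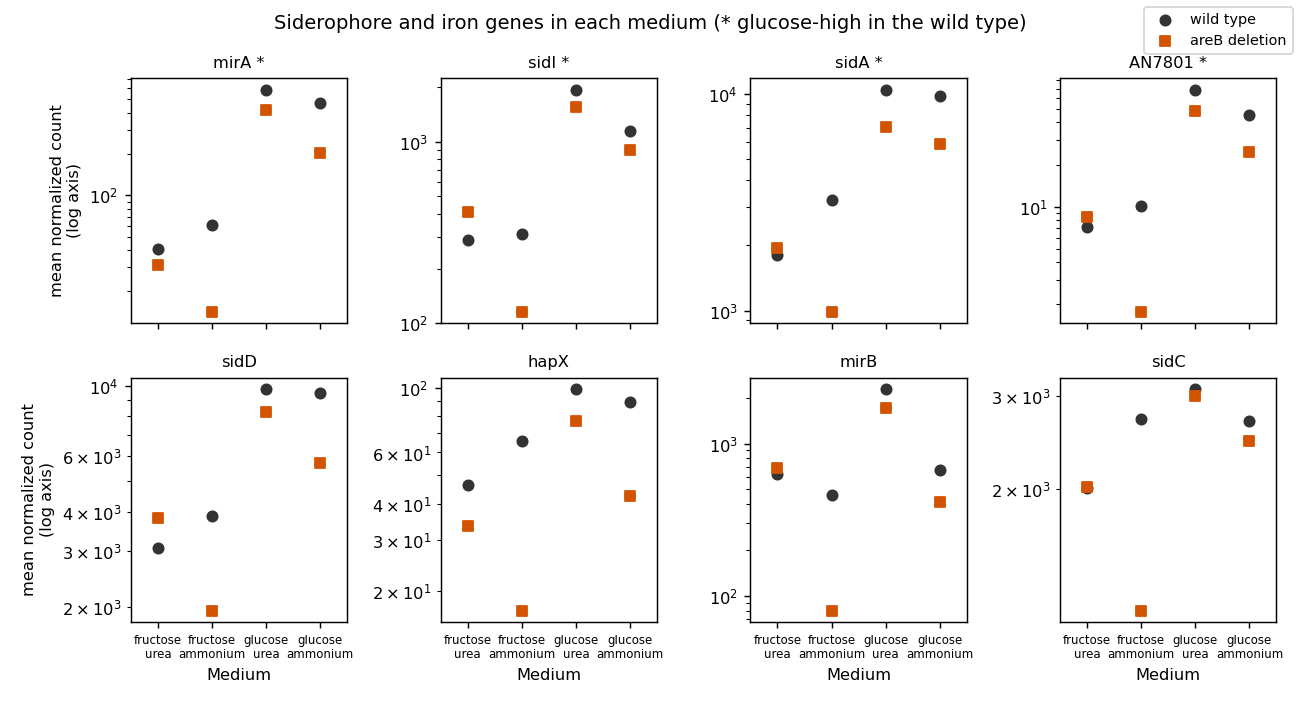
Group means of 8 siderophore and iron genes in the 4 media on log axes, each panel with its own scale, with wild type as dark circles and areB deletion strain as orange squares. The starred genes are the 4 glucose-high genes. On fructose with ammonium the deletion strain square lies below the wild type circle for all 8 genes, for instance at 115 against 310.2 for sidI and 79.1 against 457 for mirB.

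The gene mstE encodes a low affinity glucose transporter and was the only glucose-high gene among 4 hexose transporter genes matched by symbol. The list had 6 further symbols with no match, and other sugar transporter genes in the table are not covered by it. Its wild type means were 432, 604, 2777 and 3363, a ratio of 4.57. The deletion strain had means of 129, 99.4, 1719 and 1685, a ratio of 12.6, the largest of the 26 genes in that strain. The means of the deletion strain were lower in all 4 media, and by more on fructose than on glucose. On fructose the authors' deposited table gave mstE a log2 fold change, deletion over wild type, of -0.96 with urea (adjusted p 0.728) and -1.44 with ammonium (adjusted p 0.415). On glucose the authors' deposited table gave -0.50 with urea and -0.73 with ammonium, both with an adjusted p of 1.00.

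The other 3 genes matched from that list were low on glucose in both strains. The carrier gene mstC had wild type means of 1764 and 1485 on fructose against 58.2 and 60.7 on glucose, and deletion strain means of 1536 and 1697 against 299 and 259. The gene hxtA had 1854 and 1359 against 26.5 and 31.7 in the wild type, and 540.4 and 536 against 16.8 and 24.1 in the deletion strain. The gene mstA had 144 and 46.8 against 30.5 and 15.7 in the wild type, and 47.7 and 33.5 against 25.7 and 17.8 in the deletion strain. The log2 of glucose over fructose, from the means of the glucose and fructose media with 5 added, was closer to 0 in the deletion strain for all 3, at -4.66 and -2.51 for mstC in the wild type and the deletion strain, and at -1.83 and -0.77 for mstA. The difference between the strains in this value was not tested.

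Genes of glycolysis and its outlets were mostly above 1 and below the threshold. Of 15 in the table, 13 had a wild type ratio above 1, where 31.7% of all genes did. In this list 1 was at least 2 and none was glucose-high, where 0.298% of all genes were. The pyruvate decarboxylase gene pdcA, of ethanol formation, came nearest, with wild type means of 5632, 8861, 25794 and 34087, a ratio of 2.91, and a deletion strain ratio of 3.42. The phosphofructokinase gene pfkA followed the same order at 2641, 4925, 7440.4 and 9383, a ratio of 1.51. In the deletion strain 10 of the 15 had a ratio above 1, where 30.0% of all genes did. Taken as the mean of the glucose media over the mean of the fructose media, on the log2 scale with 5 added, the list had a median of 0.70 in the wild type and 0.29 in the deletion strain, where all genes had -0.08 and -0.05. None of the 14 with an adjusted p passed the authors' DESeq2 test of the strains in any medium, and at an unadjusted p under 0.05 only tpiA, for triosephosphate isomerase, was higher. This 1 of 14 was called in 3 media, where 3.76% and 4.95% of all genes were higher on fructose, with urea and ammonium, and 5.28% on glucose with urea.

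Of 13 carbon regulator genes in the table none was glucose-high, where 0.298% of all genes were. The arrestin-like gene creD came nearest, with wild type means of 281, 146, 465 and 497, a ratio of 1.64. The repressor gene creA was low on glucose in the wild type, at 302, 411, 42.1 and 62.1, and closer to level in the deletion strain, at 88.2, 72.9, 64.4 and 50.6. In the authors' deposited table creA stood at -2.04 on fructose with ammonium, with an adjusted p of 0.0583.

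**Figure D3:**
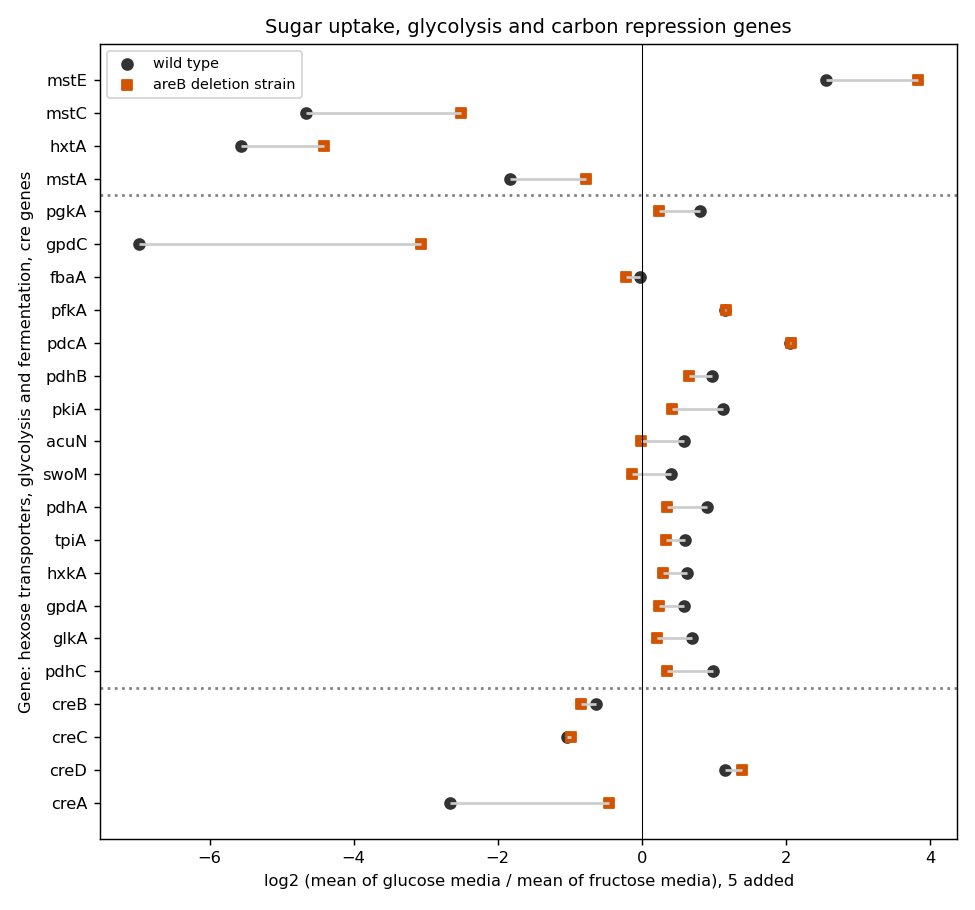
Log2 of the mean of the glucose media over the mean of the fructose media, 5 added, for hexose transporter genes (top), glycolysis and fermentation genes (middle) and the cre genes (bottom), with wild type as dark circles and areB deletion strain as orange squares joined by a grey line. The transporter gene mstE lies at 2.56 and 3.84, right of every other gene shown, and pdcA at 2.05 and 2.07.

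Of 482 genes with a transport word in their product description 6 were glucose-high, mirA and mstE included, where 0.298% of all genes were. The other 4, AN5540, AN3160, AN0601 and AN7779, carry only predicted membrane transport domains and no known substrate. AN5540 was listed at 0 in both wild type fructose groups, and its glucose means were 22.9 with urea and 41.8 with ammonium. The deletion strain had 0.356 and 0 on fructose and 6.76 and 5.29 on glucose. AN5540 was the only one of the 26 genes that passed the authors' test between strains: in the authors' deposited table it fell on glucose with ammonium by 2.69 on the log2 scale (adjusted p 6.6e-04), and its value on glucose with urea was -1.62 (adjusted p 0.205). The ratio of AN5540 went from 5.59 in the wild type to 1.92 in the deletion strain, with 5 added to means this low. AN5540 was chosen through the wild type glucose means that the authors' test also uses, which favours a fall.

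AN3160 had wild type means of 55.6, 72.6, 280.2 and 354, and deletion strain means of 49.9, 27.3, 188 and 107. AN0601 had 36.2, 29.1, 204 and 146 in the wild type against 22.7, 17.2, 73.0 and 79.4 in the deletion strain. AN7779 had 74.8, 77.4, 351 and 255 against 93.6, 93.3, 228 and 145. In all 3 the deletion strain means on glucose were the lower ones, and the deletion strain ratios were 2.05, 2.82 and 1.52. Of the 26 genes AN8399 also moves an ion, as a putative potassium-transporting ATPase whose transcript is known to be induced by calcium chloride through CrzA. The strains lay close, at 118, 152, 538 and 520.1 in the wild type and 127, 125, 482 and 419 in the deletion strain.

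Enzyme genes made up a further group. Of 666 genes with an oxidoreductase word in their product description 5 were glucose-high, where 0.298% of all genes were. These were sidA, AN3638, AN7081, AN5355 and AN6739. AN3638 encodes a putative C-4 sterol methyl oxidase, an enzyme of sterol synthesis, and had wild type means of 5.42, 15.7, 63.7 and 151. In the deletion strain its means were 12.9, 12.7, 45.3 and 48.6, so the fructose groups were level and the glucose groups lower. AN5355, with predicted oxidoreductase and acyltransferase domains, had 36.7, 44.9, 148 and 174 in the wild type and 59.3, 71.5, 102 and 124 in the deletion strain. There the sugars came closer together from both sides, and the ratio was 1.40 against 3.07. AN6739, with a predicted oxidoreductase domain, had 5.58, 4.39, 36.3 and 39.8 in the wild type and 5.39, 0.840, 23.5 and 9.02 in the deletion strain.

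AN7278 encodes a putative glutamate decarboxylase, the first enzyme of the 4-aminobutyrate shunt. Its wild type means were 61.4, 91.4, 311 and 449 and its deletion strain means 86.3, 105, 310.4 and 397, with ratios of 3.28 and 2.87. Its neighbour AN10921, with domains predicted for glycosylphosphatidylinositol anchor metabolism, had 165, 205, 628 and 892 against 185, 229, 584 and 705. These neighbours thus followed one order of media in both strains, with ammonium above urea on each sugar.

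AN7081, predicted as a UDP-N-acetylmuramate dehydrogenase, and AN10886 are neighbours in a predicted secondary metabolism cluster. They were the 2 glucose-high genes of 149 with words for secondary metabolism in their description, where 0.298% of all genes were glucose-high. AN7081 had means of 10.8, 15.8, 86.0 and 72.4 in the wild type and 11.8, 14.7, 65.3 and 80.7 in the deletion strain. AN10886 had 13.1, 11.98, 55.7 and 49.7 in the wild type and 7.20, 8.55, 46.7 and 56.1 in the deletion strain. Both kept a ratio of at least 3 without areB, at 3.57 and 3.82.

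Wall and polysaccharide genes included AN8068, pmeA, AN7323 and AN11979. AN8068, a putative beta-1,4-endoglucanase gene, had wild type means of 65.9, 112, 359 and 457. It was the only glucose-high gene of 120 with glycoside hydrolase words, where 0.298% of all genes were glucose-high. Its deletion strain means were 33.6, 46.7, 97.8 and 135, lower in every medium. In the authors' deposited table its log2 fold changes were -0.82, -1.10, -1.65 and -1.56 in the order above, with a smallest adjusted p of 0.0961, on glucose with urea. The pectinesterase gene pmeA had 9.46, 32.9, 110.5 and 204 in the wild type and 12.8, 26.1, 117 and 169 in the deletion strain. Its ratios were 3.04 and 3.93, so both strains passed the threshold.

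AN7323, for a covalently bound cell wall protein with a predicted anchor, had wild type means of 22.8, 30.9, 116 and 122. Its deletion strain means were 16.9, 3.27, 71.7 and 21.2, and the ratio of 1.20 there was the lowest of the 26. AN11979, whose orthologs locate to the cell wall, had 5.70, 15.2, 66.9 and 107 against 5.95, 11.3, 22.8 and 91.2. These wall protein genes parted in the deletion strain, where AN7323 was lower with ammonium on both sugars and AN11979 higher.

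Of the remaining 5 genes the product text names little. AN1747, whose orthologs lie in the mitochondrial inner membrane, had 10.9, 8.86, 83.4 and 74.5 in the wild type and 9.73, 11.9, 47.7 and 48.9 in the deletion strain. AN0661, whose orthologs have nucleotidyltransferase activity, had 49.2, 37.9, 166 and 168 against 26.0, 24.8, 91.3 and 115, so that all 4 means were lower without areB while the ratio stayed at 3.15 and 3.11. AN7521, known only by orthologs, spread widely over the wild type media, at 23.0, 162, 571 and 1159.6, and 16.6, 32.8, 226 and 480.3 in the deletion strain. Each nitrogen source taken alone gave it a wild type glucose to fructose ratio of 20.6 with urea and 6.96 with ammonium.

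AN11337 and AN11985, also known only by orthologs, were the genes with higher glucose means in the deletion strain on both nitrogen sources. AN11337 had 17.3, 13.0, 65.1 and 85.1 in the wild type and 22.6, 21.6, 136 and 150 in the deletion strain. AN11985 had 130.3, 83.8, 409.6 and 422 in the wild type and 135, 90.9, 655 and 560.3 in the deletion strain. Their ratios were 5.09 and 4.03 without areB against 3.14 and 3.07 with it. Neither gene passed the authors' test of the strains in any medium.

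The other 13 of 15 lists named by symbol held no glucose-high gene, among them gluconeogenesis, ethanol use, lipid and sterol synthesis, nitrate assimilation, cell wall synthesis and conidiation. Nor did 6 of 10 lists drawn by words in the product text, for cytochrome P450, regulators of transcription, ribosome and ribosome biogenesis, peptidases, methyltransferases and chaperones. As 0.298% of all genes were glucose-high, most lists of these sizes would hold none or few, and nothing is read from the absence. The ribosome list had 308 genes and a median of 0.57 for the log2 of glucose over fructose in the wild type and 0.25 in the deletion strain. In the wild type 259 of the 308 had a ratio above 1, where 31.7% of all genes did, 3 were at least 2, and the largest was 2.45. Of the 26 genes 12 were in no list.

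Near the threshold the last genes inside were AN10886 at 3.03, AN10921 at 3.01 and sidA at 3.00, and the first outside were AN1262 at 2.99, AN7322 at 2.95 and AN12458 at 2.94. AN7322 lies next to AN7323. All but 1 of the 26 genes, 25, had a mean over the 8 groups of at least 10, and AN5540 was the 1 listed at 0 in both wild type fructose groups.

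The areB deletion strain kept the direction of the glucose response in all 26 genes, with smaller ratios in most. The lower glucose mean exceeded the higher fructose mean in 26 of 26, where 30.0% of all genes did so in that strain. The same ratio of at least 3 was met by 11 of the 26, where 0.355% of all genes, 31 in number, met it. The shared 11 genes are 42.3% of the wild type list and 35.5% of the deletion strain list. They were mirA, mstE, pmeA, AN1747, AN7081, AN7521, AN8399, AN0661, AN11337, AN11985 and AN10886. A ratio of at least 2 was met by 19 of the 26 and by 1.65% of all genes.

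The median ratio of the 26 genes was 3.35 in the wild type and 2.85 in the deletion strain, where all genes had medians of 0.795 and 0.846. It was lower in the deletion strain for 20 genes and higher for 6, mstE, AN7521, AN11337, AN11985, pmeA and AN10886. Genes chosen for a large wild type ratio will on average show a smaller one in other libraries, so this shift is not read as an effect of areB. For the mirrored rule, fructose over glucose, 483 genes (5.53% of all) met it in the wild type and 199 of these, 41.2%, met it in the deletion strain, where 2.96% of all genes did. The share of the wild type list that was kept was 42.3% for glucose-high and 41.2% for fructose-high genes. Seen from the deletion strain lists the directions differed, with 11 of 31 glucose-high genes and 199 of 258 fructose-high genes shared. Neither comparison was tested.

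**Figure D4:**
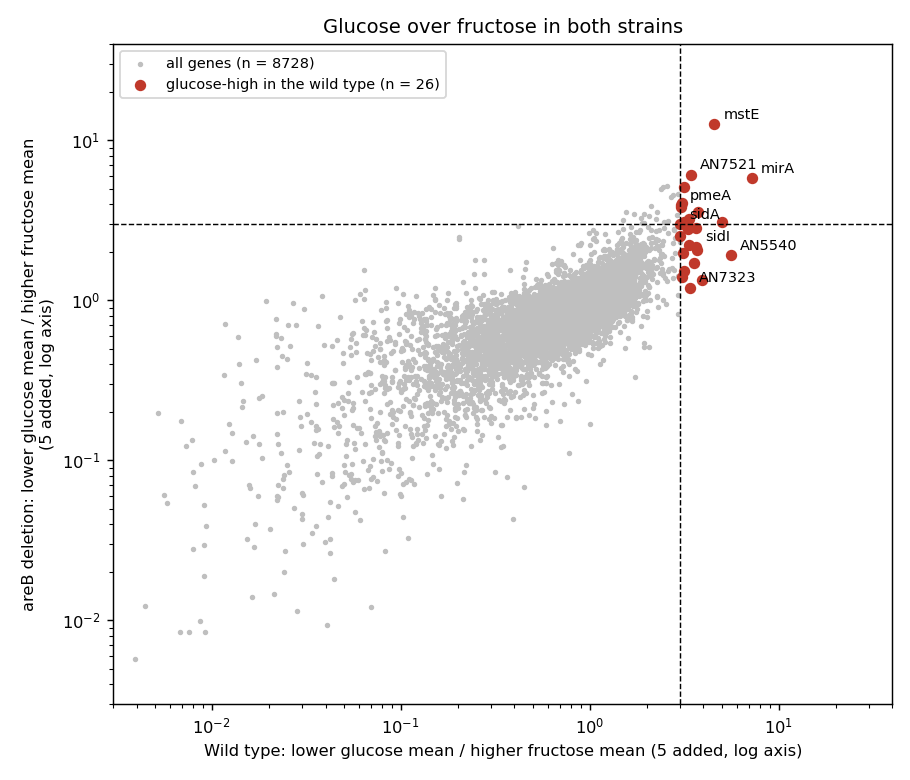
Ratio of the lower glucose mean to the higher fructose mean, 5 added, in the wild type (x axis) and the areB deletion strain (y axis) on log axes, for all 8728 genes in grey and the 26 glucose-high genes in red. Dashed lines mark the threshold of 3. All red points lie right of the vertical line by choice, and 11 of them lie above the horizontal line.

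The next counts are largely set by the choice of genes with high wild type glucose means and by the split on the deletion strain ratio, and nothing is read from them. In the 15 genes that missed the threshold without areB, the mean of the glucose groups was lower than in the wild type in 15 of 15, and the mean of the fructose groups higher in 6. Among the 11 that met it, the mean of the glucose groups was lower in 9 and the mean of the fructose groups lower in 8. With each nitrogen source taken alone, a glucose to fructose ratio of at least 3 was found in the deletion strain for 18 of the 26 with urea and 21 with ammonium, where 1.15% and 1.21% of all genes reached it. In the wild type, where the rule fixes it for all 26, 1.51% and 1.62% of all genes did. The ratios ran from 1.66 to 12.9 with urea, with a median of 3.54, and from 1.53 to 16.2 with ammonium, with a median of 3.91. AN5355 had the lowest ratio with urea and AN7779 the lowest with ammonium.

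In the deletion strain 12 of the 26 genes had a higher mean with urea than with ammonium on both sugars, where 30.1% of all genes did, and in the wild type 3 of the 26, where 21.7% of all genes did. None of the 26 had this order in both strains, where 10.8% of all genes did. For the wild type the rule takes the lower glucose mean and the higher fructose mean, which disfavours a wide spread between nitrogen sources. Nothing is therefore read from the strain contrast here or at the ratio below. The ratio of urea over ammonium, with 5 added, was at least 1.5 on each sugar in the deletion strain for 6 of the 12, mirA, sidI, AN7801, AN7323, AN3160 and AN6739, where 1.28% of all genes reached it. In the wild type none of the 26 reached it, where 0.951% of all genes did. The value of 1.5 was chosen after the levels had been seen. On fructose the ratio of these 6 ran from 1.70 in AN3160 to 3.46 in sidI in the deletion strain, and on glucose from 1.71 in AN3160 to 2.92 in AN7323. The gene sidA had 1.98 on fructose and 1.21 on glucose.

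The same 6 genes in the wild type had ratios on fructose from 0.703 in mirA to 1.13 in AN6739, and on glucose from 0.795 in AN3160 to 1.68 in sidI. On glucose mirA and AN7801 stood at 1.26 and 1.46 in the wild type, so these 2 and sidI were already higher with urea there. Among the 12 listed iron genes, 10 had a lower mean with ammonium than with urea on fructose in the deletion strain, against 2 of 12 in the wild type. Over all genes the share with this order was not counted, and the median of urea over ammonium on fructose was 0.985 in each strain. Of the 12 genes 3 are among the 26, whose wild type fructose means entered the rule, so nothing is read from this contrast. In that medium, fructose and ammonium, all 12 had a log2 fold change below 0 in the authors' deposited table (median -0.98, against -0.04 over all genes), where 52.3% of all genes did. In the other media 6 of the 12 were below 0 on fructose with urea, where 52.9% of all genes were. On glucose 10 and 11 were, with urea and ammonium, where 49.6% and 52.5% of all genes were. No member of the 12 passed the test there, and the difference between the nitrogen sources was not tested. The opposite order, a higher mean with ammonium on both sugars, held in both strains for 7 of the 26, AN7521, AN11979, pmeA, AN8068, AN5355, AN7278 and AN10921, where 16.1% of all genes had it. AN11979 had urea over ammonium of 0.642 on glucose in the wild type and 0.289 in the deletion strain.

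The authors' test of deletion over wild type called few of the 26 genes. None was higher in any medium, where 0.833% of all genes with urea and 1.12% with ammonium were called higher on fructose, and 1.39% and 1.06% on glucose. On glucose with ammonium 1 of the 26 was lower, AN5540, where 0.845% of all genes were. No member was called lower in the other media, where 1.39%, 1.39% and 0.486% of all genes were called, again in the order fructose urea, fructose ammonium and glucose urea. At an unadjusted p under 0.05, recovered from the adjusted values, 0 and 1 of the 26 were lower on fructose, with urea and ammonium, where 7.93% and 8.02% of all genes were, and 2 and 3 on glucose, where 2.50% and 3.70% of all genes were. These were AN8068 on fructose with ammonium, AN8068 and AN5540 on glucose with urea, and these 2 with AN6739 on glucose with ammonium. None of the 26 was higher at that level in any medium. The wild type libraries of this test also chose the genes, which favours lower values on glucose, so nothing is read from these calls.

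Values of deletion over wild type on the log2 scale lay below 0 on glucose for 23 of the 26 with urea and 22 with ammonium, with medians of -0.43 and -0.50 in the authors' deposited table, where all genes had 0.00 and -0.02. On fructose 11 were below 0 with urea (median 0.05) and 18 with ammonium (median -0.36), where all genes had -0.04 in each. The wild type libraries of these comparisons also chose the genes, and choosing high wild type glucose means favours values below 0 on glucose. The fructose means entered the choice as well. Nothing is therefore read from these medians.

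**Figure D5:**
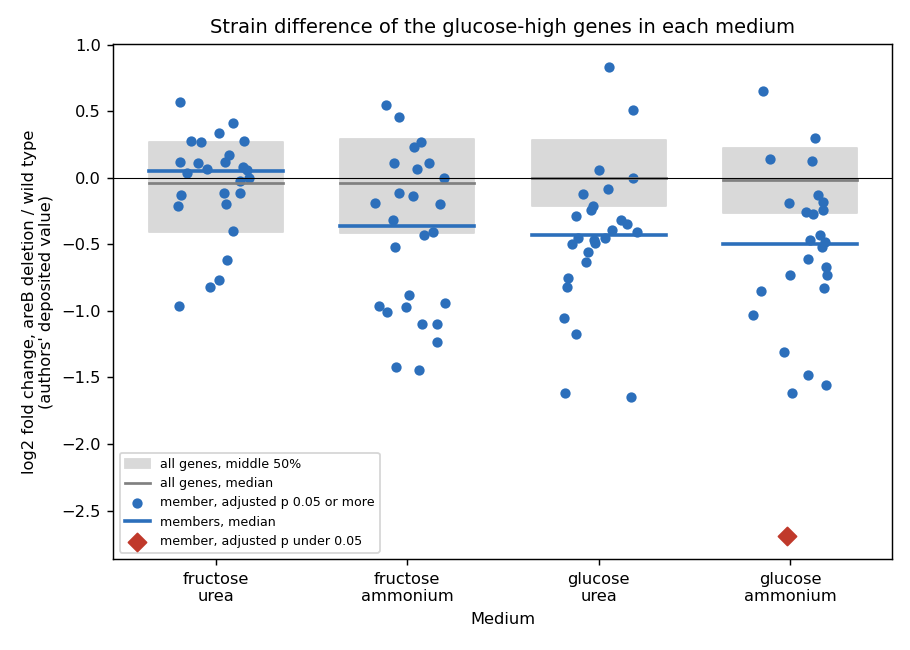
Deletion over wild type on the log2 scale, from the authors' deposited table, for the 26 glucose-high genes (points) in the 4 media, with the members' median as a blue line and the middle 50% and median of all genes in grey. The red diamond is AN5540 at -2.69 on glucose with ammonium, the 1 value with an adjusted p under 0.05. The medians are 0.05, -0.36, -0.43 and -0.50 from left to right.

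RefSeq's annotation (ASM1142v1) held 24 of the 26 genes, and in its order 3 pairs of the genes were direct neighbours: mirA with AN7801, AN7081 with AN10886, and AN7278 with AN10921. Neighbours with a wild type ratio of at least 2 were found for 8 of the 21 genes that had a neighbour in the table, against 2.21% of all genes. Most of the 8 were the genes of these 3 pairs, each counted through the other. Their ratios were at least 3 by choice, so the count is partly fixed and nothing is read from it. The other 2 of the 8 were AN7323, next to AN7322, and AN6739, next to AN6740 at 2.15. The 3 pairs and AN7323 with AN7322 do not overlap in that annotation. The biosynthesis gene sidI had AN0608, whose orthologs act in triacetylfusarinine C synthesis, at its side, with a wild type ratio of 1.45.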

How the data were processed

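The labels describe total RNA depleted of ribosomal RNA and sequenced as paired reads. The submitters' processing notes name DESeq2 1.16.1 and HTSeq 0.9.1, beside GATK, Trimmomatic and FastQC. Aligner, genome build, annotation and strand setting: not given in the sources used here. The authors deposited 1 table with a signal per group, the mean of normalized counts over its libraries. They also deposited a linear ratio of the strains, areB deletion over wild type, in each medium, which on the log2 scale kept a median of 0.800 to 0.846 of the ratio of the means where that lay beyond 1, and an adjusted p-value for each ratio, which 89 genes lack. The p-value was adjusted by the authors over all genes before the table was deposited.

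From this the ratios, medians and counts were computed with Python 3.11.15, pandas 2.3.3 and NumPy 2.4.6, with 5 added to each mean, and deposited ratios were turned to log2. The computation of the rule was checked on simulated group means with large planted changes and little noise. These changes exceeded the threshold by design and no mean was low, so the check gives no error rate for these data. A gene was called at an adjusted p under 0.05, the authors' DESeq2 value over all genes. Unadjusted p-values were recovered by inverting the Benjamini-Hochberg step, as an upper bound for tied genes. No library value was used, so no replicate could be left out, and depth limits cannot be given.

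The members and the gene lists were chosen with earlier results of these data known. Genes were named by rule: all 26, the 3 nearest genes outside the threshold, and genes of the listed pathways. Lists were matched by symbol or by words in the product text, which can take in other genes. Alternatives were another added value, least ratio, low-mean filter, scaling, p threshold and fold estimate.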

Additional observations from a re-analysis of the deposited data

How the results depend on the processing

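The number of glucose-high genes, 26, depends on the rule. It was 39 with 1 added to each mean and 25 with a mean of at least 10, but 7 with 20 added, 126 at a least ratio of 2 and 3 at a least ratio of 5. Of these, the number that met the same rule in the deletion strain, 11 as reported, was 15 with 1 added, 11 with a mean of at least 10 and 10 after rescaling each group by its median ratio, but 3 with 20 added, 60 at a least ratio of 2 in both strains, 1 at a least ratio of 5, and 19 at a least ratio of 2 in the deletion strain alone. The median log2 of glucose over fructose in the deletion strain, 1.83, was 2.12 with 1 added and 1.46 with 20 added. Among 78 ratios of single genes recomputed in the deletion strain none crossed 1 and 3 moved by over 1.5 times: AN5540, 1.92 as reported, was 4.64 with 1 added and 1.24 with 20, and AN10886, 3.82 as reported, was 2.34 with 20.

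Under an adjusted p of 0.1 the count of genes lower on glucose with urea went from 0 to 1, AN8068, and no other count of called genes moved. Taken as the ratio of the group means, the median log2 fold changes were 0.07 with urea and -0.32 with ammonium on fructose, and -0.53 and -0.65 on glucose. Recentred on all genes they were 0.08, -0.33, -0.43 and -0.48. No paired analysis was possible because the table holds group means and no values per library, and leaving out each replicate was not run for the same reason.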

Other observations

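A further 20 genes met the same rule in the areB deletion strain and not in the wild type, where their ratios ran from 1.51 to 2.94 and 13 of the 20 were at least 2. They included genes of lipid and sterol synthesis: sdeB, for a delta-9 stearic acid desaturase, had a ratio of 3.89 there against 2.12 in wild type cultures, and AN8907, for a putative C-4 sterol methyl oxidase, 4.58 and 2.76. The means of sdeB on fructose were 1258 with urea and 3186 with ammonium in the wild type and 835 and 1346 in the deletion strain, while those on glucose were 6770.3 and 8809 against 5251 and 5844. Others were the cytochrome P450 gene CYP537B1 at 5.00 and 2.40, the arrestin gene apyA at 4.61 and 2.94, the eisosome gene nce102 at 3.21 and 2.24, and rfeA, a putative regulator of secondary metabolism, at 3.58 and 1.56.

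These 20 genes were chosen on the deletion strain's means, so their strain difference is a description. By the values the authors deposited, 18 of the 20 had a log2 fold change below 0 on fructose with urea and 19 with ammonium, where 52.9% and 52.3% of all genes did. On glucose 14 were below 0 with urea and 19 with ammonium, where 49.6% and 52.5% of all genes were, and the medians over the 4 media were -0.60, -0.83, -0.14 and -0.51. The 1 that passed the test in either fructose medium was AN2942, the neighbour of rfeA by identifier, which fell by 1.55 on the log2 scale with urea (adjusted p 0.0210) and by 1.59 with ammonium (adjusted p 0.0128) in the authors' deposited table. Its means on fructose were 68.1 and 85.5 in the wild type and 20.9 and 25.9 in the deletion strain. On fructose 1.39% of all genes were called lower with each nitrogen source. Choosing low fructose means in the deletion strain favours such a call, so nothing is read from it.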
